A study of Mus musculus with 12 samples.

Results

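Many genes besides the aminoacyl-tRNA synthetases cause inherited disease of the motor neuron or its axon when mutated. This account follows 45 of them in the spinal cord of young mice that carry a mutation of Gars, which encodes glycyl-tRNA synthetase. The 45 genes are causes of motor neuron disease, spinal muscular atrophy, or axonal or demyelinating neuropathy. A gene was taken where the gene name in the deposited tables equals its symbol, which found all 45 among 38924 genes. All 45 passed the filter on low counts, which kept 17995 genes for testing.

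RNA was sequenced from the whole spinal cord of 12 mice, 1 library per mouse, at 1 week of age, which the series' title places ahead of disease onset. The mutant groups were 3 female and 3 male mice with the P278KY allele of Gars, carried over a wild-type allele, and the controls were 3 female and 3 male wild-type (wt) mice. All 4 groups share the mixed strain background labelled B6J;CAST, and none of the labels gives a litter or a batch. Each library is named here by its labelled sex, genotype and mouse number, and the replicates are separate mice.

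The 45 genes act at different points of a very long cell. A motor neuron sends its axon far from the cell body, and RNA handling, protein clearance, mitochondria, motor proteins, membrane traffic, lipid synthesis and ion channels must serve that whole length, while Schwann cells outside the cord wrap the peripheral part of the axon in myelin. Mutations in very different pathways therefore lead to related diseases in people, and in the axonal neuropathies among them the longest axons usually suffer first.

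Expected counts, the authors' estimates of fragments per gene, summed to between 27713981 and 43219891 per library, and 22001 to 23173 genes were detected in each. Gars itself stood at 121 to 140 CPM (counts scaled to the size of the library after TMM normalisation) in P278KY cords and 117 to 135 CPM in wt cords, a level that cannot check the label because the mutation leaves the transcript in place. Sex marks went against the label in 2 libraries, both wt. Xist, the RNA of the inactive X chromosome, and the Y-linked gene Ddx3y stood at 0.543 and 45.1 CPM in female wt 14, as labelled, and at 860 and 0.0233 CPM in male wt 19, as labelled. The cord markers were present in every library: the 4 neuron markers summed to 1254 to 1557 CPM in P278KY cords and 1279 to 1558 CPM in wt cords, and the 7 tested motor neuron markers to 126 to 198 CPM in P278KY cords and 127 to 305 CPM in wt cords. Neighbouring tissue varied far more. The 6 Schwann cell markers summed to 74.3 to 1756 CPM in P278KY cords and 215 to 2403 CPM in wt cords, and the 8 skeletal muscle markers to 54.7 to 2074 CPM in P278KY cords and 9.21 to 810 CPM in wt cords. The 8 markers of dorsal root ganglion neurons reached 345 CPM in female wt 14, as labelled, where every other library had at most 37.8 CPM.

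The 45 disease genes were well expressed in the 1-week cord. Their median level was 49.1 TPM (the deposited level per transcript length), against 13.3 TPM over all tested genes, and 41 of 45 lay above that wider median. The levels ran from 443 TPM for Hint1 down to 1.39 TPM for Trpv4, with 14 genes above 100 TPM and 4 below 10 TPM. Together the 45 genes made up 0.387% to 0.461% of all TPM in a library. In the order of levels the ranges of neighbours over the 12 libraries nearly always overlapped. They were apart for 3 of 44 neighbouring pairs: Sod1 lay above Pfn1, Inf2 above Ighmbp2, and Ighmbp2 above Atp7a.

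**Figure D1:**
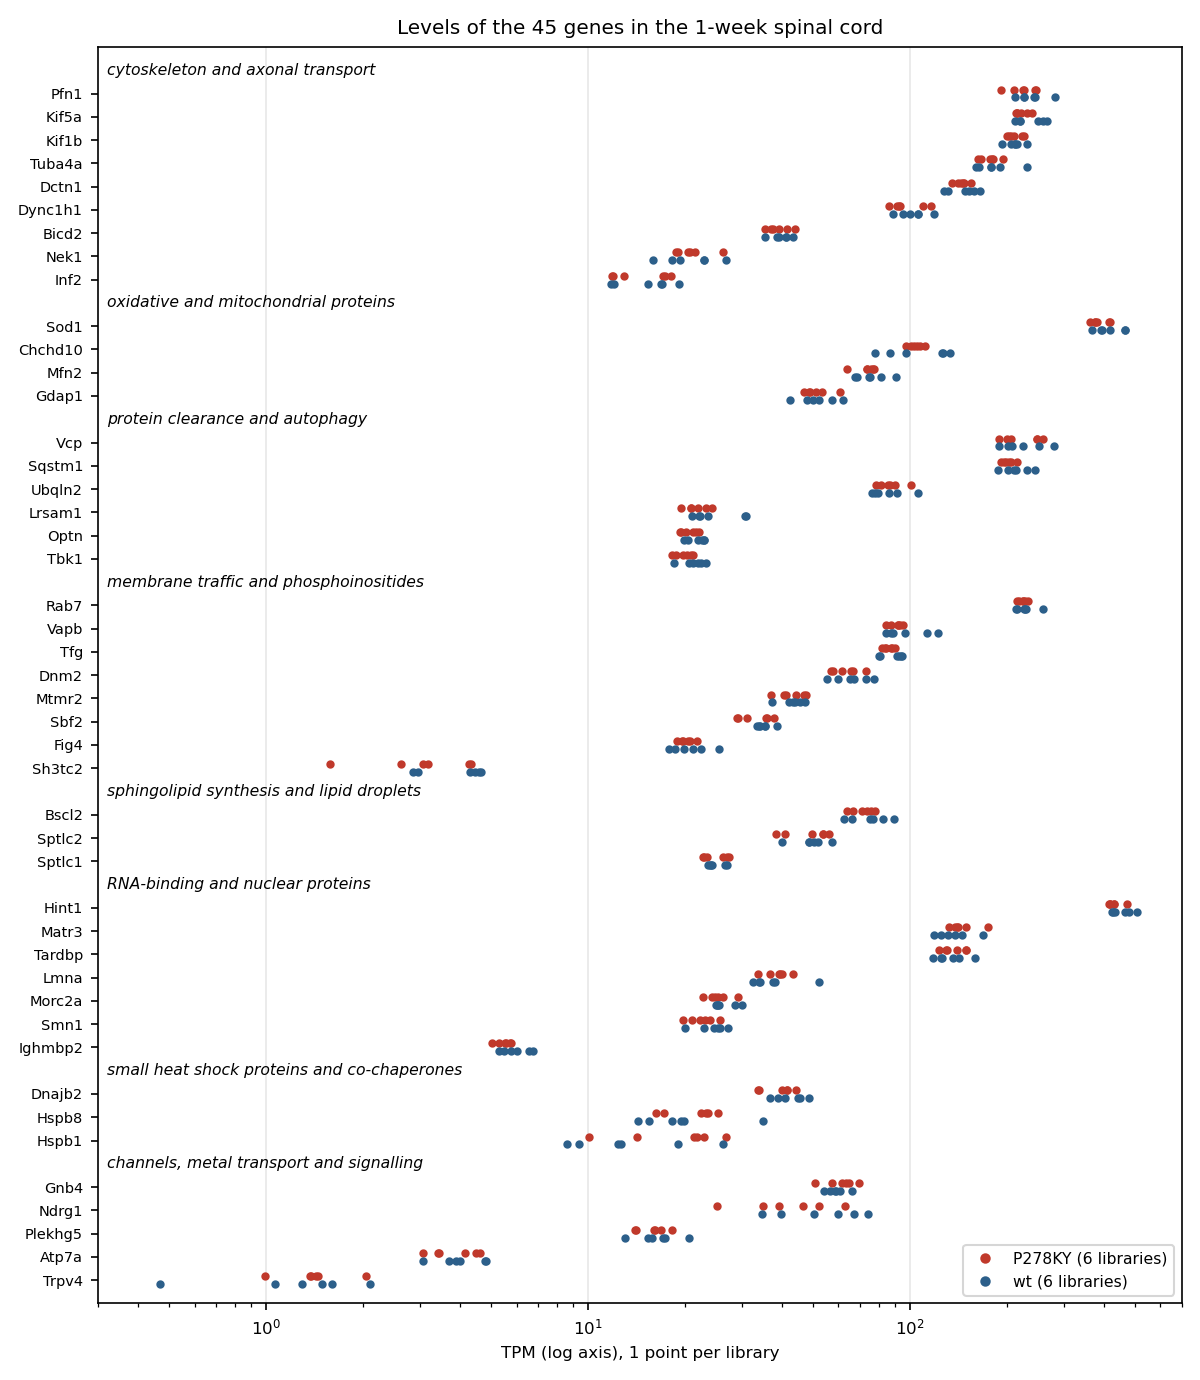
TPM of the 45 genes on a log axis, 1 point per library, with the 6 P278KY libraries in red above the 6 wt libraries in blue, grouped by the role of the gene product. The 2 genotypes overlap in every row, and the points of Hspb1, Hspb8, Ndrg1, Sh3tc2 and Trpv4 spread the most.

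Among RNA-binding and nuclear proteins, Hint1, a nucleotide phosphoramidase mutated in a recessive axonal neuropathy with neuromyotonia, was the highest, with 431 ± 20.5 TPM in P278KY cords and 455 ± 33.1 TPM in wt cords (SD, n = 6 each here and in the next paragraphs). Matr3 (matrin 3, a nuclear matrix protein that binds RNA) averaged 146 ± 15.1 TPM in P278KY cords and 138 ± 17.5 TPM in wt cords. Tardbp, which encodes TDP-43, the splicing regulator that aggregates in most amyotrophic lateral sclerosis (ALS), averaged 137 ± 11.3 TPM in P278KY cords and 135 ± 15.1 TPM in wt cords. Lmna (lamins A and C of the nuclear envelope), Morc2a (a chromatin ATPase) and Smn1 (the assembly factor of spliceosomal particles lost in spinal muscular atrophy) averaged 38.4, 26.0 and 23.4 TPM over the 12 libraries. Ighmbp2, a helicase mutated in spinal muscular atrophy with respiratory distress, was the lowest of this group, with 5.49 ± 0.272 TPM in P278KY cords and 5.98 ± 0.573 TPM in wt cords. Part of the Ighmbp2 count may belong elsewhere: its exons share 117 bases with Mrpl21 on the opposite strand, and Morc2a shares 483 bases with the abundant RNA Tug1, and whether the counting used strand is not given in the sources used here.

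Among the genes of protein clearance and autophagy, Vcp, the ATPase that pulls ubiquitin-tagged proteins out of complexes and membranes, led with 225 ± 29.9 TPM in P278KY cords and 226 ± 34.3 TPM in wt cords. Sqstm1 (p62, a receptor that brings ubiquitin-tagged cargo to autophagosomes) followed at 202 ± 7.98 TPM in P278KY cords and 215 ± 20.5 TPM in wt cords, and Ubqln2 (a shuttle to the proteasome) at 87.1 ± 7.89 TPM in P278KY cords and 86.2 ± 11.3 TPM in wt cords. Lrsam1 (a ubiquitin ligase), Optn (optineurin, another autophagy receptor) and Tbk1, the kinase that phosphorylates such receptors, lay close together at 23.5, 21.2 and 20.6 TPM over the 12 libraries. Among the chaperones, Dnajb2, a co-chaperone enriched in neurons, had 39.2 ± 4.33 TPM in P278KY cords and 42.6 ± 4.45 TPM in wt cords, Hspb8 had 21.4 ± 3.71 TPM in P278KY cords and 20.4 ± 7.47 TPM in wt cords, and Hspb1 had 19.6 ± 6.20 TPM in P278KY cords and 14.7 ± 6.77 TPM in wt cords.

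Sod1, the cytosolic superoxide dismutase whose mutations cause familial ALS, led the oxidative and mitochondrial proteins with 388 ± 22.4 TPM in P278KY cords and 418 ± 41.1 TPM in wt cords. Chchd10, a protein of the mitochondrial intermembrane space, averaged 104 ± 5.12 TPM in P278KY cords and 108 ± 23.4 TPM in wt cords. Mfn2, the outer-membrane GTPase that fuses mitochondria and the most often mutated gene of dominant axonal Charcot-Marie-Tooth disease, averaged 73.5 ± 4.98 TPM in P278KY cords and 76.3 ± 8.50 TPM in wt cords. Gdap1, which also acts on the outer membrane, was the lowest with 51.6 ± 4.99 TPM in P278KY cords and 52.0 ± 6.88 TPM in wt cords.

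The cytoskeleton and transport group held 6 of the 14 genes above 100 TPM. Pfn1 (profilin 1, which feeds actin filaments), Kif5a (a kinesin heavy chain of neurons), Kif1b (a kinesin that carries synaptic vesicle precursors and mitochondria) and Tuba4a (an alpha-tubulin) averaged 232, 230, 212 and 180 TPM over the 12 libraries. Dctn1, the large subunit of dynactin, averaged 145 ± 6.60 TPM in P278KY cords and 147 ± 15.0 TPM in wt cords, and Dync1h1, the heavy chain of the dynein motor it activates, 98.2 ± 12 TPM in P278KY cords and 102 ± 10.5 TPM in wt cords. Bicd2 (an adaptor between dynein and cargo), Nek1 (a kinase of cilia and DNA repair) and Inf2 (a formin that builds actin filaments) were lower at 39.5, 21.1 and 15.1 TPM. Tuba4a shares 1379 bases of exon with Stk16 on the opposite strand.

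In membrane traffic, Rab7, the GTPase of late endosomes, stood at 224 ± 6.12 TPM in P278KY cords and 229 ± 16.4 TPM in wt cords. Vapb (a tether between the endoplasmic reticulum and other membranes), Tfg (a factor of vesicle export from the endoplasmic reticulum) and Dnm2 (dynamin 2, which pinches off vesicles) averaged 94.6, 87.3 and 64.9 TPM over the 12 libraries. The phosphoinositide genes were lower: Mtmr2, a lipid phosphatase, at 43.1 TPM, Sbf2, its catalytically inactive partner, at 34.2 TPM, and Fig4, another lipid phosphatase, at 20.6 TPM. Sh3tc2, a Schwann cell protein of endosome recycling, closed this group with 3.18 ± 1.04 TPM in P278KY cords and 3.98 ± 0.830 TPM in wt cords.

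The lipid genes lay in the middle of the order. Bscl2, which encodes seipin, a protein of lipid droplet formation, had 71.3 ± 5.37 TPM in P278KY cords and 75.4 ± 9.91 TPM in wt cords. Its exons share 398 bases with Gng3 on the opposite strand. Sptlc2 and Sptlc1, subunits of serine palmitoyltransferase, the first enzyme of sphingolipid synthesis, averaged 49.1 and 25.0 TPM over the 12 libraries. Of the channel, transport and signalling genes, Gnb4 (a G protein beta subunit) was the highest with 61.1 ± 6.41 TPM in P278KY cords and 59.1 ± 4.14 TPM in wt cords. Ndrg1, a protein needed in myelinating Schwann cells, averaged 43.5 ± 13.4 TPM in P278KY cords and 54.2 ± 15.4 TPM in wt cords. Plekhg5 (an exchange factor for small GTPases) and Atp7a (a copper-transporting ATPase) averaged 16.2 and 3.96 TPM. Trpv4, a calcium-permeable channel, was the lowest of the 45 with 1.44 ± 0.338 TPM in P278KY cords and 1.34 ± 0.548 TPM in wt cords, and its level in a library was as low as 29 counts.

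P278KY cords were then compared with wt cords, with labelled sex as a term, to see which of these genes differed by genotype before the onset of disease. The level of none of the 45 genes changed past the threshold: 0 of 45 had an edgeR quasi-likelihood adjusted p under 0.05, where 0.00556% of all tested genes did, and 0 of 45 had an unadjusted p under 0.05, where 4.09% of all tested genes did. DESeq2 also called 0 of 45 at its adjusted p, with 0.185% of all genes called. At its unadjusted p under 0.05 it had 1 of 45, Ndrg1, where 4.42% of all genes were. For none of the 45 were the 6 P278KY values all above or all below the 6 wt values, which was so for 0.222% of all tested genes. In whole tissue, fewer cells of a type and less RNA per cell cannot be told apart.

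The fitted differences were small as well as uncalled. Of the 45 genes, 21 had a higher and 24 a lower fitted level in P278KY cords, the median log2 fold change was -0.00 against -0.01 over all tested genes, and the median size of the log2 fold change was 0.04 against 0.06. The standard error of these log2 fold changes had a median of 0.07. The 95% interval of the fold change lay within 1.25-fold either way for 39 of 45 genes, within 1.5-fold for 41 and within 2-fold for 44. The 6 genes with an interval past 1.25-fold were Ndrg1, Sh3tc2, Hspb1, Hspb8, Trpv4 and Inf2, and Hspb1 was the 1 gene with an interval past 2-fold.

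**Figure D2:**
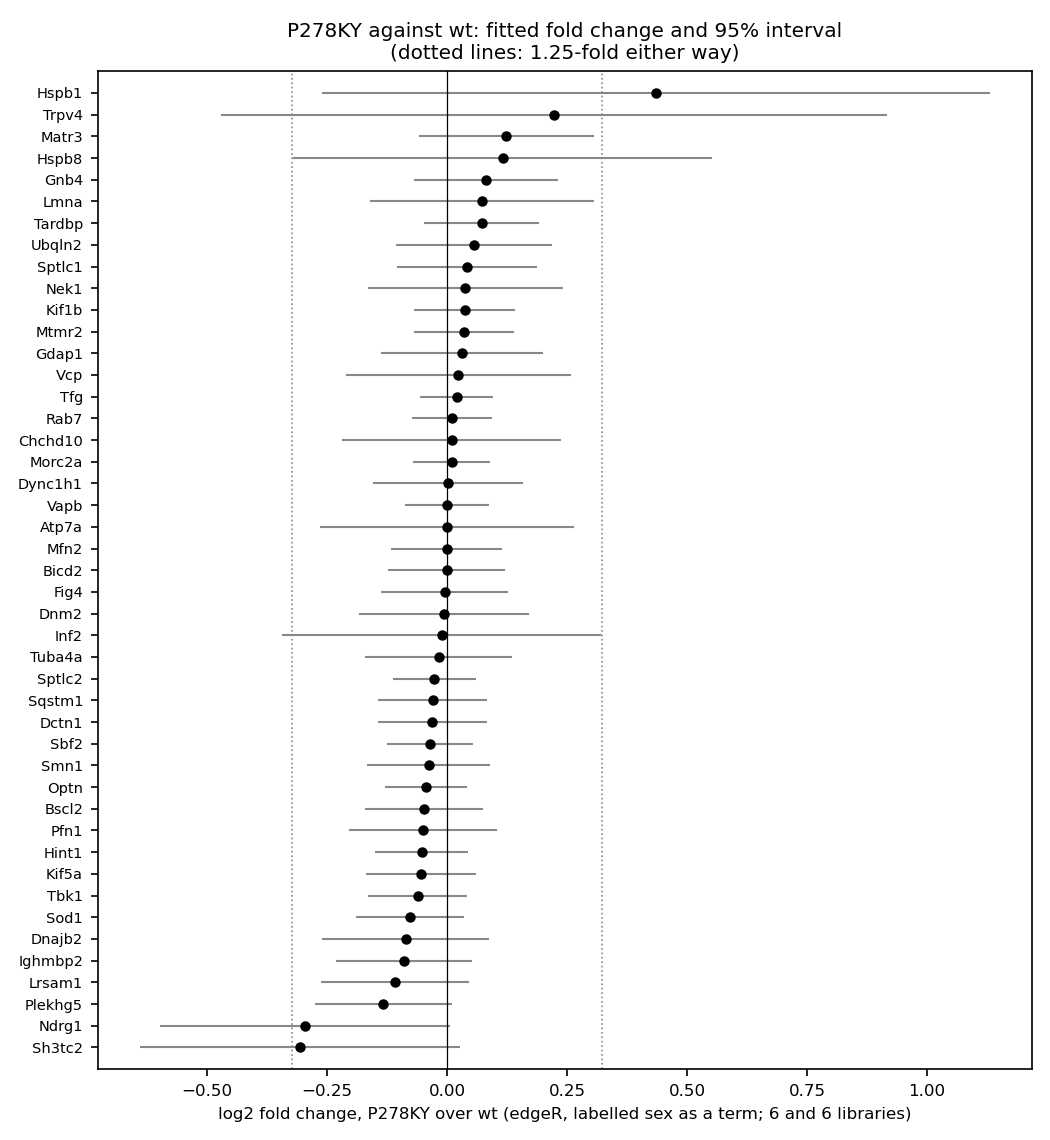
Fitted log2 fold change of P278KY over wt for the 45 genes (points) with the 95% interval of each (lines), from edgeR over 6 P278KY and 6 wt libraries. All 45 intervals include 0, and 39 stay between the dotted lines at 1.25-fold either way.

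Sod1, a classical ALS gene, had 95.6, 102, 97.4, 97.3, 102 and 108 CPM in P278KY cords, against 112, 108, 116, 95.3, 98.8 and 106 CPM in wt cords, where the first 3 values of each genotype are mice labelled female. Its log2 fold change was -0.08 ± 0.05 (SE), and the groups overlapped. Tardbp had a log2 fold change of 0.07 ± 0.06, with 240 to 279 CPM in P278KY cords and 217 to 261 CPM in wt cords. Matr3, with 0.12 ± 0.08 log2, ranged from 338 to 435 CPM in P278KY cords and from 286 to 399 CPM in wt cords, and its lowest value was in the library labelled female wt 14. With single libraries left out, the log2 fold change ran from 0.06 to 0.17 for Matr3 and from 0.03 to 0.10 for Tardbp, both lowest without female P278KY 4. For Smn1, the gene of spinal muscular atrophy, the log2 fold change was -0.04 ± 0.06, and for Mfn2 it was -0.00 ± 0.05 with a 95% interval of -0.12 to 0.12.

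Among the 12 genes with the smallest p were also several with very small differences. Tbk1 had a log2 fold change of -0.06 ± 0.05, Hint1 of -0.05 ± 0.04, Gnb4 of 0.08 ± 0.07 and Ighmbp2 of -0.09 ± 0.07 (SE). Lrsam1 stood at -0.11 ± 0.07, with 36.9, 37.4, 39.4, 39.0, 40.8 and 41.8 CPM in P278KY cords and 42.6, 40.3, 50.9, 40.5, 42.9 and 36.6 CPM in wt cords. The value of 50.9 CPM is the library labelled female wt 14, and without that library the Lrsam1 difference was -0.05 log2. Every one of these 12 genes kept its direction under all the alternatives run, 252 values in all, and none of them passed the adjusted threshold in any. The alternatives reuse the libraries from which the 12 genes were picked, so a kept direction is no independent support.

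Ndrg1 and Sh3tc2, both known for their roles in myelinating Schwann cells, were among the 3 genes with the smallest p, beside Plekhg5. Ndrg1 had the smallest p (0.0535, edgeR, unadjusted; adjusted p = 1). It stood at 72.2, 96.5, 82.5, 41.4, 63.6 and 53.9 CPM in P278KY cords, against 98.1, 80.4, 111, 87.3, 55.6 and 65.0 CPM in wt cords. The log2 fold change was -0.30 ± 0.14 (SE), and the groups overlapped over most of their range. Sh3tc2, whose loss causes a demyelinating neuropathy, had 8.06, 10.7, 11.1, 4.25, 8.11 and 6.83 CPM in P278KY cords and 11.1, 11.2, 11.2, 10.7, 7.61 and 7.86 CPM in wt cords, a log2 fold change of -0.31 ± 0.15. Plekhg5 had 25.7 to 29.6 CPM in P278KY cords and 24.8 to 34.8 CPM in wt cords, a log2 fold change of -0.13 ± 0.07. With single libraries left out, the log2 fold change ran from -0.36 to -0.20 for Ndrg1, nearest 0 without male wt 6, and from -0.38 to -0.19 for Sh3tc2, nearest 0 without male P278KY 3.

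The 6 Schwann cell markers, among them Prx, Dhh and Drp2, varied between the same libraries. All 6 had a lower fitted level in P278KY cords, 0 of 6 were called, none was at 0 in any library, and their sum had a median of 881 CPM in P278KY cords and 1849 CPM in wt cords. Over the 12 libraries, Ndrg1 varied with the mean log2 level of these markers (Pearson r = 0.890, permutation p = 4e-05, adjusted 0.00900; Spearman rho = 0.909, permutation p = 1e-04, adjusted 0.0225, two-sided, 100000 resamples, adjusted over 225 relations of 45 genes and 5 marker lists). The resamples moved libraries freely across the 4 groups, so differences between the groups count in these relations. Without male P278KY 3 and male wt 9, the libraries farthest from the median of the markers, r for Ndrg1 was 0.868 (permutation p = 0.00111). Sh3tc2 had r = 0.916 (adjusted permutation p = 0.0292) and rho = 0.825 (adjusted permutation p = 0.0540), so that 1 of its 2 measures missed the threshold. Plekhg5 had r = 0.723 (adjusted permutation p = 0.157) and rho = 0.839 (adjusted permutation p = 0.0540). With the mean level of the markers as a further term of the edgeR fit, a setting chosen after seeing the data, the log2 fold changes were -0.15 ± 0.10 for Ndrg1, -0.15 ± 0.10 for Sh3tc2 and -0.09 ± 0.07 for Plekhg5.

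**Figure D3:**
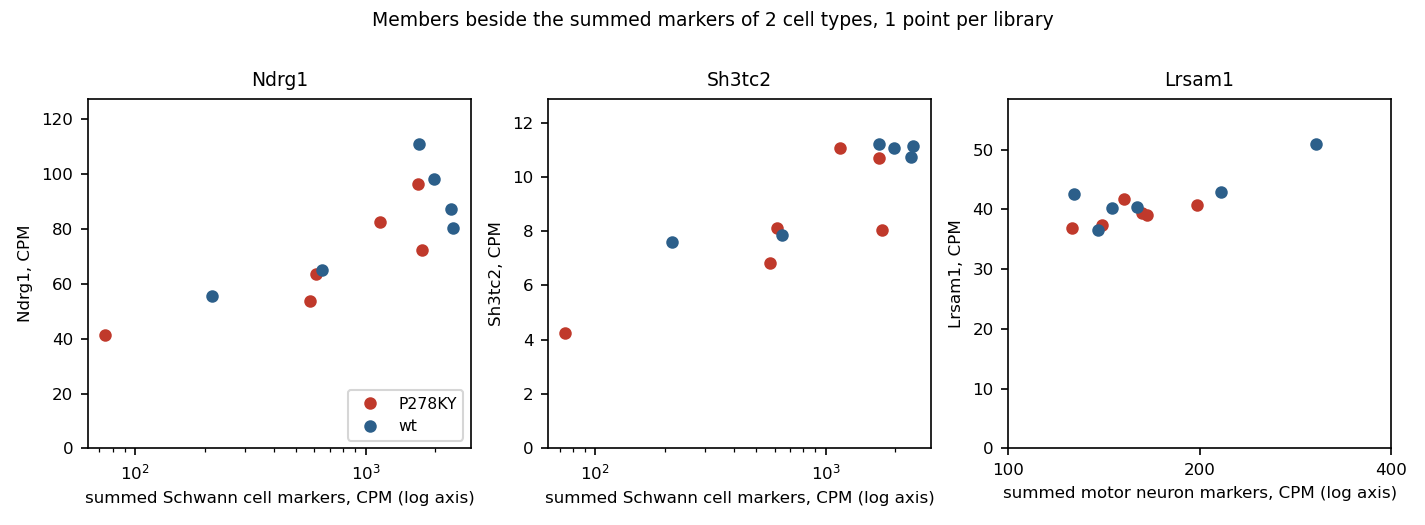
CPM of Ndrg1 and Sh3tc2 against the summed CPM of the 6 Schwann cell markers, and of Lrsam1 against the summed CPM of the motor neuron markers, on log horizontal axes, with P278KY libraries in red and wt libraries in blue. The library with the lowest Schwann cell sum, male P278KY 3 at 74.3 CPM, also has the lowest Ndrg1 and Sh3tc2, and the highest Lrsam1 value is the wt library with the highest motor neuron sum.

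Lrsam1 and the motor neuron markers gave the other relation past the threshold by both measures (r = 0.861, permutation p = 0.00039, adjusted 0.0292; rho = 0.881, permutation p = 0.00032, adjusted 0.0360). At one end of it is the library labelled female wt 14, which had 305 CPM of motor neuron markers as well as the ganglion markers given above. Prph made up 192 CPM of that sum, where every other library had 45.8 to 79.4 CPM. Isl1 was also high there, at 10.8 CPM against 2.74 to 4.80 CPM. Chat, Slc5a7, Mnx1, Lhx3 and Lhx4 lay within the range of the other libraries, so the high sum was not shared by the whole list. Without female wt 14 and male wt 9, r was 0.635 (permutation p = 0.0477, unadjusted). Sptlc1 and the oligodendrocyte markers passed by r (0.849, adjusted permutation p = 0.0399) and missed by rho (0.832, adjusted permutation p = 0.0540). Smn1 and the dorsal root ganglion markers had r = 0.634 (adjusted permutation p = 0.276) and rho = 0.846 (adjusted permutation p = 0.0540).

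Hspb1 and Hspb8 bind unfolding proteins and keep them from aggregating, and dominant mutations of either cause distal motor neuropathy in people. Within its 4 groups, Hspb1 had the largest SD of the 45 genes (0.57 log2 CPM), followed by Trpv4 (0.41), Hspb8 (0.39), Inf2 (0.31) and Sh3tc2 (0.30), where the median was 0.10 for the 45 genes and 0.16 for all tested genes. Hspb1 is a classical target of the heat shock factor HSF1, whose binding site is made of repeated GAA and TTC units. Its promoter is shown because Hspb1 has the largest fitted difference by genotype of the 45 genes. The 250 bases before the RefSeq start site, at chr5:135887669-135887918 on the plus strand of GRCm38.p6, are given with matches to GAANNTTC, the core of the heat shock element, in capitals.
Hspb1: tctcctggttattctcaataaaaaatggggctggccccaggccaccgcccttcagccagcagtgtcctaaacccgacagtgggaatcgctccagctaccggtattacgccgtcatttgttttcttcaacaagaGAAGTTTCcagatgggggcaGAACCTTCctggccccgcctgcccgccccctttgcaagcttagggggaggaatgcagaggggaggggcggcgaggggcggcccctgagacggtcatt

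The matches begin 117 and 97 bases before the start site. RefSeq windows were at hand for 36 of the 45 genes, 52 windows in all, and 3 of 52 (Hspb1, Vcp and Sod1) hold GAANNTTC, which reads the same on both strands, against 6.69% of all 32851 windows. No sequence was at hand for Ubqln2, Kif5a, Matr3, Nek1, Gdap1, Hint1, Gnb4, Sh3tc2 and Ndrg1. The core of the antioxidant response element, TGACNNNGC on either strand, was in 5 windows of 4 genes (Dnajb2, Vcp, Rab7 and Sod1), and in 10.2% of all windows. No match of one motif overlapped a match of another. A match is a run of letters and says nothing of binding in the cord.

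Hspb1 stood at 4.08, 10.6, 5.88, 9.86, 9.05 and 9.01 CPM in P278KY cords, against 4.74, 5.23, 10.4, 3.32, 3.99 and 8.10 CPM in wt cords. The 2 highest wt values are the libraries labelled female wt 14 and male wt 19, those with sex marks against the label, and the groups overlapped. By genotype it differed by 0.44 ± 0.32 log2 (SE; edgeR adjusted p = 1). Without both of those libraries it was 0.89 ± 0.27 (edgeR unadjusted p = 0.00746, adjusted p = 0.461), and without female wt 14 alone 0.68 ± 0.27 (edgeR unadjusted p = 0.0297, adjusted p = 1). Hspb8 had 16.1, 23.3, 22.7, 22.9, 21.9 and 15.7 CPM in P278KY cords and 17.6, 14.9, 31.7, 12.8, 18.0 and 19.1 CPM in wt cords, a log2 fold change of 0.12 ± 0.20, or 0.37 ± 0.15 without both libraries (edgeR adjusted p = 0.759). Lmna was also high in that library. It had 37.9 to 48.4 CPM in P278KY cords, against 59.2 CPM in female wt 14, as labelled, and 37.7 to 45.4 CPM in the other wt cords. Leaving out both libraries brought 4 of 45 genes to an unadjusted p under 0.05, Hspb1, Lmna and Hspb8 higher and Plekhg5 lower in P278KY cords, where 5.76% of all genes were, and 0 of 45 passed the adjusted threshold. Skeletal muscle, which is rich in Hspb1, left traces in both genotypes. Its 8 markers all had a higher fitted level in P278KY cords, 0 of 8 were called, and their sum had a median of 455 CPM in P278KY cords and 28.6 CPM in wt cords, with ranges that overlapped. Hspb1 and the muscle markers had r = 0.670 (adjusted permutation p = 0.249) and rho = 0.636 (adjusted permutation p = 0.341) over the 12 libraries, and the part of muscle in the Hspb1 values was not tested.

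Each genotype effect was next read within the labelled sexes, and the effects themselves were compared as the effect in females minus the effect in males. Of the 45 genes, 9 had an edgeR unadjusted p under 0.05 for this difference, 8 of them below 0 and 1 above, where 10.9% of all tested genes had one, 4.73% below 0 and 6.2% above. After adjustment 0 of 45 passed, as did 0% of all tested genes. DESeq2 called 3 of 45, all below 0, where it called 1.73% of all genes it tested. Every statement of sex here follows the labels, and 2 of the 6 wt libraries have sex marks against theirs.

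Chchd10 had the largest such difference relative to its error. This small protein helps to shape the cristae of mitochondria, and its mutations cause ALS, spinal muscular atrophy of late onset and myopathy. Its gene lies at chr10:75933130-75937747 on the plus strand. Mice labelled female had 41.2, 41.9 and 44.8 CPM with P278KY and 53.3, 54.6 and 52.3 CPM as wt. Mice labelled male had 47.4, 49.8 and 46.6 CPM with P278KY and 39.5, 34.8 and 38.8 CPM as wt. The groups were thus apart in each labelled sex, in opposite directions, and the widest gap was between the wt groups. Grouped by sex marks, the genotypes overlapped in each sex, since 52.3 CPM is female wt 14 and 38.8 CPM is male wt 19. Mice labelled female gave a log2 fold change of -0.32 ± 0.06 (edgeR adjusted p = 0.170; DESeq2 adjusted p = 0.000397). Mice labelled male gave 0.34 ± 0.06 (edgeR adjusted p = 0.411; DESeq2 adjusted p = 0.000238). The difference was -0.67 ± 0.09 log2 (SE; edgeR adjusted p = 0.0702, with a range of 4.2e-09 to 0.371 over the alternatives), which passed in DESeq2 and in edgeR without a filter on low counts (adjusted p = 0.0468). Without the libraries labelled female wt 14 and male wt 19 it was -0.70 (edgeR adjusted p = 0.0847), so it was as large without them.

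The neighbours of Chchd10 on the chromosome did not share this pattern past an unadjusted p of 0.05 in edgeR. The smallest p was that of Mmp11 (0.284, with a difference of 0.23 ± 0.20 log2), which shares 155 bases of exon with Chchd10 on the opposite strand and stood at 2.74 to 3.86 CPM. Chchd10 is also the 1 gene of the 36 with a RefSeq window whose promoter holds TGATGNAA (TTNCATCA on the other strand), the core of the composite element that ATF4, the transcription factor of the integrated stress response, binds with a partner. Of the 52 windows of the disease genes, 1 held it, or 1.92%, against 3.45% of all windows. The 250 bases before the start, at chr10:75932880-75933129 on the plus strand of GRCm38.p6, are shown for that reason, with the matches in capitals.
Chchd10: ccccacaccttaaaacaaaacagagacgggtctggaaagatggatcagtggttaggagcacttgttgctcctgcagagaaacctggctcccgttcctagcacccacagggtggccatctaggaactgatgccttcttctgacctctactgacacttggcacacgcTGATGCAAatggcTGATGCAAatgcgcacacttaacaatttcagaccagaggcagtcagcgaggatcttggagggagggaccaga

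The copies begin 85 and 72 bases before the start site. Across both sexes the log2 fold change of Chchd10 by genotype was 0.01 ± 0.10.

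Trpv4 and Dctn1 shared the opposite order in the labelled sexes. Libraries of the genotypes did not overlap in either labelled sex and lay in opposite directions for 3 of 45 genes. These were Chchd10, Trpv4 and Dctn1, where 1.73% of all tested genes did so. Trpv4 had 2.08, 1.58 and 2.26 CPM in females with P278KY and 2.43, 2.85 and 3.51 CPM in wt females, and 2.68, 3.69 and 2.14 CPM in males with P278KY and 0.779, 1.56 and 1.82 CPM in wt males. Its difference was -1.60 ± 0.44 log2 (edgeR adjusted p = 0.240; DESeq2 adjusted p = 0.0494) at a level near the floor of the 45 genes. Dctn1 had 271, 257 and 246 CPM in females with P278KY and 296, 280 and 287 CPM in wt females, and 257, 267 and 279 CPM in males with P278KY and 253, 251 and 248 CPM in wt males. Its difference was -0.25 ± 0.08 log2 (edgeR adjusted p = 0.288; DESeq2 adjusted p = 0.0331).

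**Figure D4:**
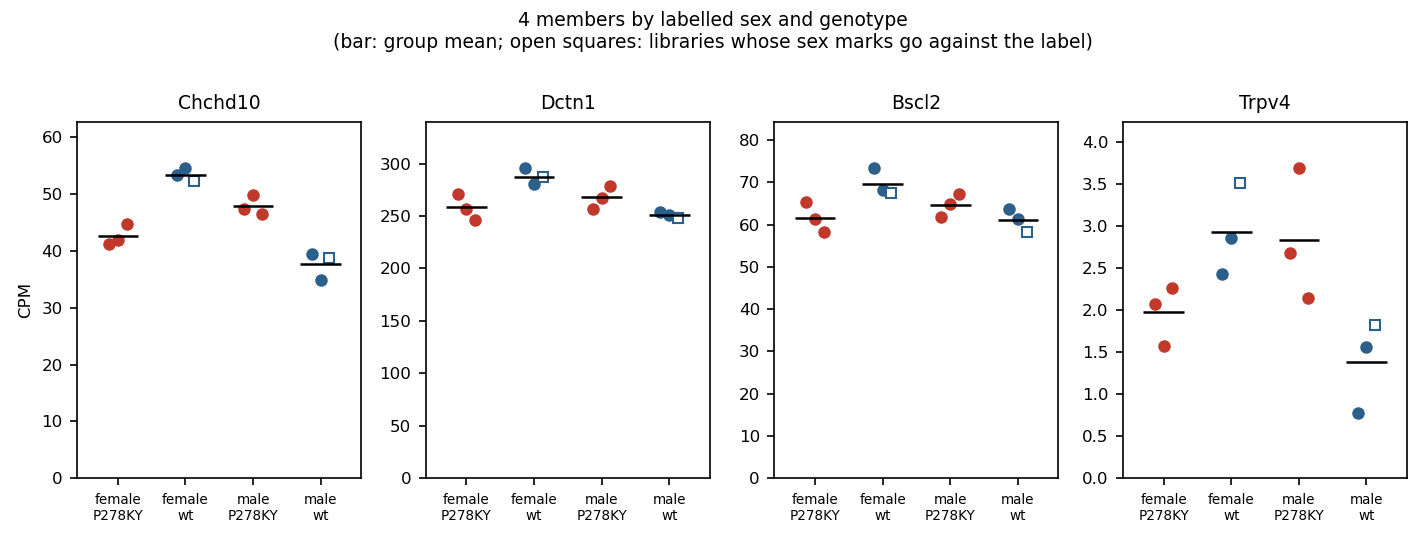
CPM of Chchd10, Dctn1, Bscl2 and Trpv4 in the 4 groups, 1 point per library, with group means as bars, P278KY in red and wt in blue. Open squares are the libraries labelled female wt 14 and male wt 19, which lie with the other wt libraries of their label in Chchd10 and Dctn1.

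The remaining genes under an unadjusted p of 0.05 for the difference were Bscl2 (-0.26 ± 0.09 log2), Sqstm1 (-0.23 ± 0.08), Sod1 (-0.22 ± 0.08), Vcp (-0.46 ± 0.18), Mfn2 (-0.22 ± 0.09) and Atp7a (0.47 ± 0.18), with edgeR adjusted p between 0.326 and 0.429. Within labelled females alone, 7 of 45 had an unadjusted p under 0.05, all lower in P278KY cords, where 4.91% of all genes were lower at that level and 10.7% passed it in either direction. These were Chchd10, Sod1, Bscl2, Dctn1, Lrsam1, Sqstm1 and Hint1, and 0 passed after adjustment, as did 0% of all genes. Sod1 had a log2 fold change of -0.19 ± 0.06 in females and 0.03 ± 0.06 in males, and Bscl2 had -0.18 ± 0.06 in females and 0.08 ± 0.06 in males. DESeq2 called 1 of 45 in females, Chchd10, and 2.05% of all genes it tested there. Leaving out female P278KY 7 or female P278KY 10 brought the edgeR count of 7 to 4, where 6.89% and 8.01% of all genes passed. Leaving out female wt 2 brought it to 11, where 11.5% of all genes passed. Within labelled males, 3 of 45 had an unadjusted p under 0.05, Chchd10 and Trpv4 higher and Sbf2 lower, where 4.91% of all genes did, 2.26% higher and 2.66% lower. After adjustment 0 passed, as did 0% of all genes, and DESeq2 called 1 of 45, Chchd10, and 0.19% of all genes. Trpv4 had a log2 fold change of 1.03 ± 0.31 there and Sbf2 of -0.11 ± 0.05.

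Vcp shares fragments with a near-identical copy. The mouse genome holds Vcp-rs, a processed pseudogene of Vcp at chrX:104345829-104348234 on the minus strand, whereas Vcp lies at chr4:42979963-43000507, also on the minus strand (GENCODE M21, GRCm38). Over 2421 aligned bases of their transcripts, bases 330 to 2750 of Vcp, identity was 99.05%, with 8 mismatched bases and 15 bases of gap, and 76.9% of all stretches of 75 bases, the length of a read, were the same in both. A window of 80 bases that holds 3 of the mismatches, in capitals, shows how little separates the transcripts.
Vcp: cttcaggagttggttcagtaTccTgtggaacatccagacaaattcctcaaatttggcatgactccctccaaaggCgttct
Vcp-rs: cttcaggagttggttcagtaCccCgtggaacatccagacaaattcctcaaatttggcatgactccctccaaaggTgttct

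These are bases 1794 to 1873 of the Vcp transcript and 1465 to 1544 of the Vcp-rs transcript. The deposited counts for Vcp fell into separate levels. They were 348, 354 and 340 CPM in females with P278KY and 459, 453 and 471 CPM in males with P278KY, against 371, 357 and 478 CPM in wt mice labelled female and 348, 347 and 464 CPM in wt mice labelled male. Where Vcp was low, in 7 libraries with 340 to 371 CPM, Vcp-rs held 22.4% to 25.1% of the fragments of the pair. Where Vcp was high, in 5 libraries with 453 to 478 CPM, Vcp-rs had 0 to 12.65 counts. Those 5 are all 3 males with P278KY and the libraries labelled female wt 14 and male wt 19. This split did not follow the sex marks: male wt 6 and male wt 9, with Y-linked RNA, held the copy, and male P278KY 3, 5 and 13, also with Y-linked RNA, did not.

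The sum of Vcp and Vcp-rs was nearly constant, at 449 to 471 CPM in P278KY cords and 456 to 478 CPM in wt cords. Its coefficient of variation over the 12 libraries was 1.92%, against 14.7% for Vcp alone. On the summed counts, a setting chosen after seeing the data, the difference between the labelled sexes was -0.04 ± 0.07 log2 (edgeR unadjusted p = 0.519) in place of -0.46 ± 0.18 (edgeR unadjusted p = 0.0237), and the log2 fold change by genotype was -0.02 ± 0.03 in place of 0.02 ± 0.11. Hspb1 and Sod1 also have near-identical processed pseudogenes, Hsp25-ps1 and Gm8566, which held 3.18% and 0.0136% of the counts of each pair. Adding them gave a log2 fold change by genotype of 0.45 ± 0.33 for Hspb1 and left that of Sod1 at -0.08 ± 0.05. With these copies and Vcp-rs added, 8 of 45 genes in place of 9 had an edgeR unadjusted p under 0.05 for the difference between labelled sexes. Of these, 7 lay below 0 and 1 above, where 10.9% of all tested genes had such a p.

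**Figure D5:**
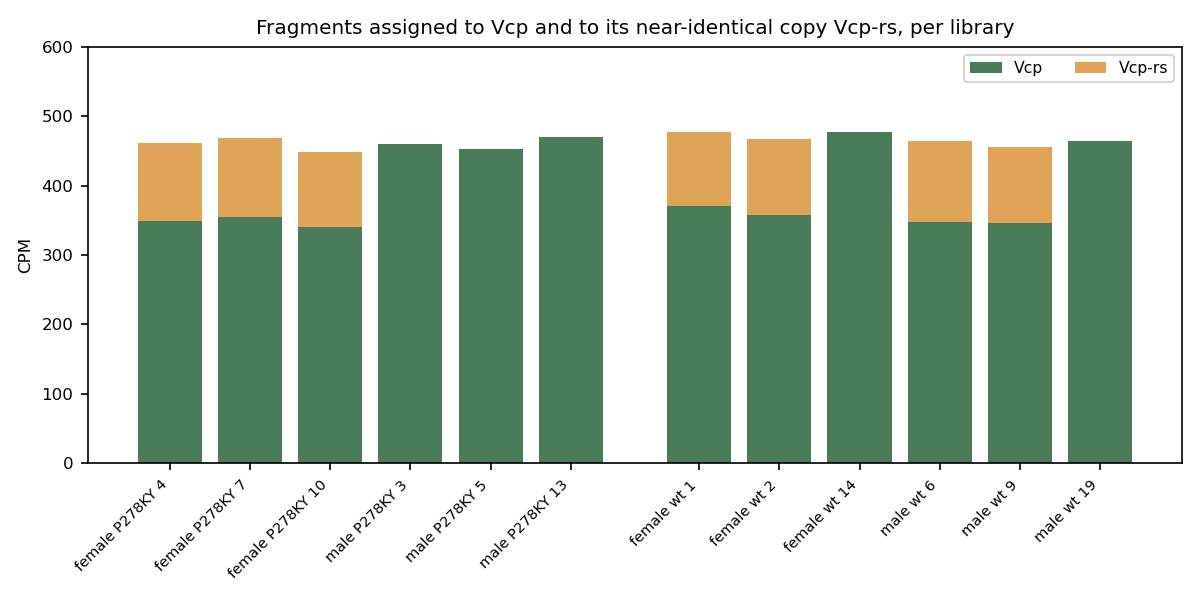
CPM assigned to Vcp (green) and to its pseudogene Vcp-rs (orange), stacked, in the 6 P278KY libraries at the left and the 6 wt libraries at the right. The stacks reach 449 to 478 CPM in every library, while the orange share is either 22.4% to 25.1% or close to 0.

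The RNA ratios of partner proteins overlapped between the genotypes. The TPM ratio of Sptlc1 to Sptlc2 was 0.519 ± 0.060 in P278KY cords and 0.508 ± 0.049 in wt cords (SD, n = 6 each for these ratios). The ratio of the phosphatase Mtmr2 to its inactive partner Sbf2 was 1.30 ± 0.16 in P278KY cords and 1.23 ± 0.10 in wt cords, and that of Dctn1 to Dync1h1 was 1.49 ± 0.19 in P278KY cords and 1.44 ± 0.06 in wt cords. Hspb1 to Hspb8 gave 0.922 ± 0.288 in P278KY cords and 0.715 ± 0.170 in wt cords. The difference between the means was smaller than the SD of either genotype in the ratios of Sptlc1 to Sptlc2, Mtmr2 to Sbf2 and Dctn1 to Dync1h1. For Hspb1 to Hspb8 it was larger than the SD of wt cords and smaller than that of P278KY cords. The ranges overlapped in all 4 ratios.

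The tables also give each gene a length averaged over its transcripts by their abundance, so a change in transcript choice that alters length would move it. Of the 45 genes, 34 were deposited with several transcripts. In 0 of them did the lengths of the genotypes fail to overlap, against 0.223% of the 11231 tested genes whose length varies. The coefficient of variation of the length had a median of 1.38% over all 45 genes, those with a single transcript and a fixed length included. It was above 5% for 6 genes.

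Other genes of the same diseases were counted in the same way. Of 26 further tested motor neuron disease genes, such as Atxn2 and Spg11, 0 passed the adjusted threshold and 2 (7.69%) had an edgeR unadjusted p under 0.05 by genotype, where 4.09% of all tested genes did. One of these was Chmp2b, a subunit of the endosomal sorting machinery, with 61.3 ± 3.12 CPM in P278KY cords and 56.5 ± 4.05 CPM in wt cords (log2 fold change 0.12 ± 0.05). Of 44 further tested neuropathy genes, such as Pmp22, Gjb1 and Nefl, 0 passed and 1 (2.27%) had an unadjusted p under 0.05, the neurofilament heavy chain gene Nefh, with 361 ± 35.6 CPM in P278KY cords and 439 ± 65.1 CPM in wt cords (-0.29 ± 0.10). The difference between labelled sexes had an unadjusted p under 0.05 for 8 of the 26 genes (30.8%) and 5 of the 44 (11.4%), where 10.9% of all tested genes had one, with 0 past the adjusted threshold.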

How the data were processed

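Whole spinal cord RNA of 12 mice was sequenced from poly(A)-selected libraries made with stranded kits, 75 bp paired-end, per the labels' protocols. The submitters' processing notes name RSEM 1.2.12 and Bowtie2 2.2.0. Neither a build, nor an annotation, nor whether counting used strand is given in the sources. For every gene the deposited files hold, per the file headers, an expected count (which need not be whole, since fragments that match several genes are divided), a TPM value, an FPKM value and a transcript length. The deposited TPM and FPKM values were scaled by the authors to length and library total. TPM served to compare levels, and FPKM gave the same rank to 43 of the 45 genes.

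Expected counts were rounded and summed to 27713981 to 43219891 per library. edgeR's filterByExpr over the 4 groups kept 17995 genes, which were scaled with TMM. All tests by gene used the robust quasi-likelihood method of edgeR 4.0.16 (R 4.3.3) on all 12 libraries with labelled sex as a term. Effects within sex and their difference were contrasts of 4 group means. P-values were adjusted by Benjamini-Hochberg over all tested genes, with a threshold of 0.05. The common coefficient of biological variation was 23.9%. The standard error of a log2 fold change is its size over the square root of F. CPM values are counts per TMM-scaled library, with a prior count of 2 on the log2 scale. The procedure was tested on simulated data.

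Copies were sought with blastn 2.17.0 among GENCODE M21 transcripts (identity of at least 97% over at least 200 bases). Promoters are RefSeq windows of 250 bases on GRCm38.p6. Correlations used permutation tests in scipy 1.17.1, with libraries moved freely across the 4 groups. Genes were named as the 12 with the smallest p by genotype, the 4 with the smallest p within each sex and for their difference, the highest and lowest of each role group, the 5 with the largest spread, and those past the threshold against marker lists. Others named were chosen after their values were seen, and 1 gene of the further disease lists is not reported here. The 45 genes, the lists and these rules were chosen with earlier results of these data known.

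Alternatives were RLE factors, no filter, a filter at CPM above 1 in at least 6 libraries, DESeq2 1.42.0, limma-trend 3.58.1 on log2(TPM + 1), no sex term, omission of the libraries with sex marks against the label, and omission of each library in turn. Sums with near-identical copies and a Schwann cell marker term were added after seeing the data.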

Additional observations from a re-analysis of the deposited data

Results flagged for a closer look

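In the 90 sets of 6 libraries examined (45 genes in each genotype), 5 values, from 3 libraries, stood apart from the other 5 of their genotype by Dixon's criterion, which chance alone meets in about 1 of 20 such sets. The library labelled female wt 14 accounts for 3 of the values. It had 31.7 CPM of Hspb8, where the other wt cords had 12.8 to 19.1 CPM, 59.2 CPM of Lmna, where they had 37.7 to 45.4 CPM, and 123 CPM of Hint1, where they had 109 to 112 CPM. This library also has sex marks against its label and the highest sums of dorsal root ganglion and motor neuron markers. Its 4 meninges and fibroblast markers had the highest sum too, 3415 CPM. That sum was 664 to 1388 CPM in the other wt cords and 1022 to 2304 CPM in P278KY cords. The part of these features in the values above was not tested. Female P278KY 4 had the lowest Lmna of its genotype, 37.9 CPM, against 45.1 to 48.4 CPM in the other P278KY cords. Female wt 2 had the highest Optn of the wt cords, 31.0 CPM, against 28.4 to 29.3 CPM.

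The effect of P278KY differed between the labelled sexes for 3 genes by DESeq2's test of that difference, though not by edgeR's after adjustment: Chchd10 (-0.67 log2, females minus males), Dctn1 (-0.25) and Trpv4 (-1.60). They were flagged by the order of their libraries. In each, all 3 P278KY libraries lay below the 3 wt libraries in mice labelled female and above them in mice labelled male. Grouped by sex marks, the genotypes overlapped in both sexes for all 3 genes. By these marks female wt 14 is male, with 52.3 CPM of Chchd10, 287 CPM of Dctn1 and 3.51 CPM of Trpv4. Male wt 19 is female by them, with 38.8, 248 and 1.82 CPM.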

How the results depend on the processing

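No paired analysis was possible because the 4 groups share no mouse numbers. The count of 0 of 45 genes past the adjusted threshold by genotype held under all 21 alternatives, and 0 genes were apart by genotype in the 15 that alter the CPM values or the libraries. Percentages in brackets are the shares of all genes at the same level. At an unadjusted p under 0.05 by genotype, the count of 0 (4.09%) became 1 with DESeq2 (4.42%). It became 4 without both libraries with discordant sex marks (5.76%), and ran from 0 to 4 with single libraries left out (2.76% to 6.56%). It was 4 without female wt 14 (4.03%) and 2 without male P278KY 5 (Ndrg1 and Sh3tc2, 3.87%) or male wt 9 (Plekhg5 and Ndrg1, 4.01%). Within females the count of 7 (10.7%) ran from 4 to 11 with single libraries left out (6.89% to 12.6%). Within males the count of 3 (4.91%) became 7 with DESeq2 (5.01%) and 5 without both discordant libraries (8.72%). It ran from 2 to 5 with single libraries left out (3.09% to 7.63%), being 5 without male P278KY 5 (3.16%) or female wt 14 (5.72%). For the difference between sexes, the adjusted count of 0 became 1 (Chchd10) with no filter. It became 3 with DESeq2, which called 1.73% of all genes it tested. The cause of these changes was not tested. Leave-one-out values ran from -0.71 to -0.62 log2 for Chchd10 and from -1.86 to -1.31 for Trpv4, whose difference was -0.74 with limma-trend on log2(TPM + 1), where the added 1 shrinks a gene of this level. Intervals here rest on 6 mice per genotype, or 3 per sex and genotype.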
